A study of Homo sapiens with 6 samples.

Results

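The RNA component of the signal recognition particle, 7SL, was examined in the peak lists of a FLASH-seq experiment, a method that reads out RNA joined by ultraviolet crosslinks to an affinity-purified protein. The human RefSeq table lists 3 genes for this RNA, RN7SL1, RN7SL2 and RN7SL3, among 59716 genes on the chromosomes. Every deposited peak that shared at least 1 base with any of them was taken, which gave 18 of the 9974 peaks in 4 lists. The baits were HSPA1A, a stress-inducible HSP70 chaperone, and HSPA8, its constitutively expressed relative. Both carried a 3xFLAG-HBH tag and were expressed from a tetracycline-inducible transgene (1 µg/ml) in the established human embryonic kidney line HEK293 Flp-In T-Rex. There were 2 biological replicates per bait, with a separate peak list for each. The series also has 2 libraries of a GFP bait with the same tag and induction. GFP peaks were not analysed here. Without a control bait, abundance of the RNA cannot be told apart from binding to HSP70.

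7SL is a small non-coding RNA made by RNA polymerase III and one of the most abundant RNAs of the cytoplasm. It is the scaffold of the signal recognition particle, which holds signal peptides as they leave the ribosome and brings the ribosome to the endoplasmic reticulum. Its 5′ and 3′ ends fold together into the Alu domain, bound by SRP9 and SRP14, which slows translation. The middle of the RNA forms the S domain, bound by SRP19, SRP54, SRP68 and SRP72, where the signal peptide is recognised. Alu repeats and a large family of pseudogenes descend from 7SL.

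The 3 genes lie near each other on chromosome 14 (GRCh38) and are each 299 bp long. RN7SL1 lies at chr14:49586580-49586878, inside the annotated span of the ribosomal protein gene RPS29. RN7SL2 lies at chr14:49862551-49862849, inside the span of the long non-coding RNA gene LOC105378179. RN7SL3 lies at chr14:49853616-49853914, with no other annotated gene over it. All 6 peaks on RN7SL1 were on the plus strand, and all 8 on RN7SL2 and all 4 on RN7SL3 were on the minus strand. The gene table gives no strand, so positions in the RNA are counted from 1 at the 5′ end of the strand that carried the peaks. No sequence of these genes was in the tables used here, so none is shown.

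Replicates 1 and 2 of HSPA1A held 2744 and 2059 peaks in all, and those of HSPA8 3131 and 2040. Read depth is unknown. The lists differed in how well they covered 7SL, and HSPA8 replicate 2 covered the least of it, so the positions shared by all lists and the bait differences are also given without that list. Peak lists give no expression level, so the cell line could not be checked against marker genes.

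The peaks were confined to the genes themselves. RN7SL1 and RN7SL2 had a peak in 4 of 4 lists and RN7SL3 in 3 of 4, with none in HSPA8 replicate 2. Among 7187 annotated genes of 100 to 500 bp, the share with a peak was 5.97% and 4.23% in the HSPA1A lists, 4.7% and 3.65% in the HSPA8 lists, and 2.96% in all 4 at once. Within 10 kb on either side of each gene, 0 peaks lay outside the 7SL genes in any list. RPS29 and LOC105378179 likewise had 0 peaks in any list beyond those on RN7SL1 and RN7SL2. The outermost peaks ran to the annotated ends: 3 peaks, all from HSPA8 lists, stopped 1 base past the annotated 3′ end.

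On RN7SL1, the copy with the highest score in 3 lists, HSPA1A replicate 1 had adjoining peaks from position 35 to 100 (score 13) and from 101 to 287 (score 45). The score is the authors' whole-number value per peak, its meaning is not stated, and it is used here only to order peaks within a list. HSPA1A replicate 2 had peaks from 49 to 175 (score 10) and from 180 to 229 (score 6). HSPA8 replicate 1 had a single peak of 300 bp over the whole gene (score 83). HSPA8 replicate 2 had a single peak of 55 bp from 143 to 197 (score 6). The peak of HSPA8 replicate 2 shared all of its 55 bases with the peaks of both lists numbered 1 and 51 with those of HSPA1A replicate 2, which left a gap from 176 to 179. The gene was covered over 84.6%, 59.2%, 100% and 18.4% of its length in the order given.

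RN7SL2 showed the same middle stretch and, in the HSPA8 lists alone, a peak of its own at the 3′ end. In HSPA1A replicate 1 a single peak ran from 64 to 274 (score 30), and in HSPA1A replicate 2 the peaks ran from 36 to 176 (score 9) and from 180 to 229 (score 6). In HSPA8 replicate 1 the gene was split into peaks from 2 to 111 (score 16), 113 to 251 (score 42) and 252 to 300 (score 15). In HSPA8 replicate 2 the peaks ran from 143 to 197 (score 6) and from 252 to 300 (score 5). The 3′ peak from 252 to 300 thus had the same boundaries in both HSPA8 lists, and no HSPA1A peak on any copy passed position 287. In HSPA8 replicate 1 this 3′ peak adjoined the one ending at 251, and the HSPA1A replicate 1 peak covered part of the same positions. Coverage of RN7SL2 was 70.6%, 63.9%, 99.3% and 34.4% of its length in the same order of lists.

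RN7SL3 carried peaks in its middle alone. In HSPA1A replicate 1 they ran from 129 to 179 and from 180 to 230, each with a score of 6. The peak of HSPA1A replicate 2 ran from 180 to 220 (score 5) and that of HSPA8 replicate 1 from 120 to 228 (score 24). Positions 1 to 119 and 231 to 299 of RN7SL3, together 188 positions, were under 0 peaks in all 4 lists, whereas RN7SL1 had 0 such positions and RN7SL2 had 1. Each peak on RN7SL3 lay wholly within the positions that peaks of the same list covered on RN7SL1 and on RN7SL2.

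**Figure D1:**
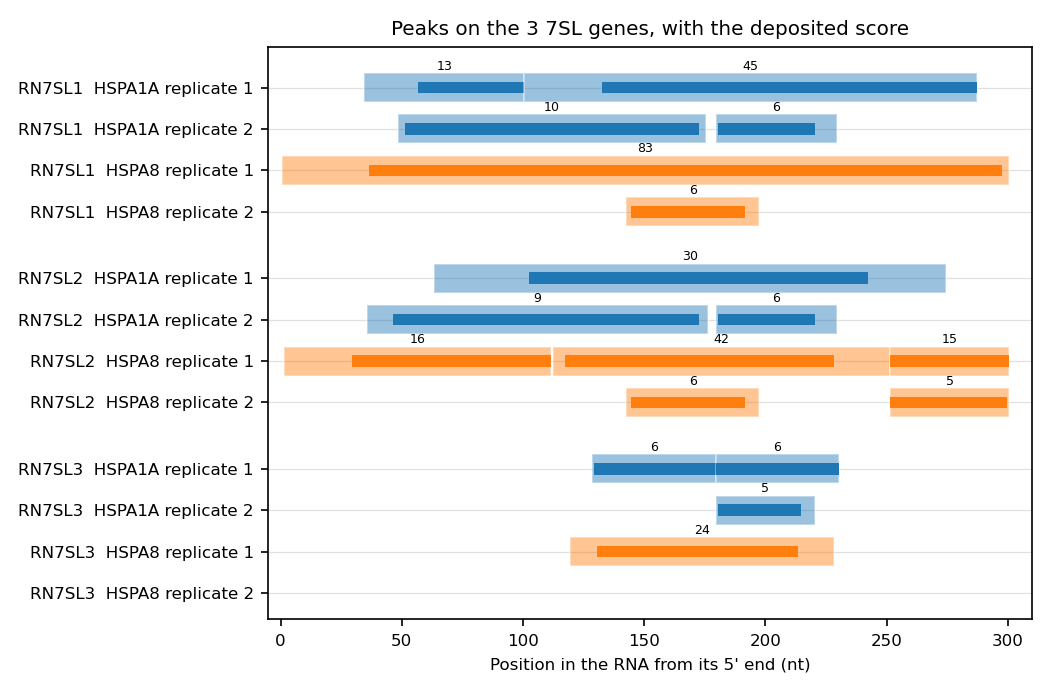
Peaks on RN7SL1, RN7SL2 and RN7SL3 in each of the 4 lists, by position in the RNA in nt (x axis). Pale bars are whole peaks, dark bars the deposited inner interval of each peak, whose meaning is not stated, and the number above each peak is its score; HSPA1A is blue and HSPA8 orange. RN7SL3 has peaks between positions 120 and 230 only, and none in HSPA8 replicate 2.

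The part of the RNA marked in every list was a stretch in the middle. When a position was counted as marked if a peak covered it on any copy, 52 of the 299 positions were marked in all 4 lists, from 143 to 176 and from 180 to 197. A further 178 positions were marked in 3 lists, 35 in 2 and 34 in 1, and none in 0. On RN7SL1 alone the positions in all 4 lists were 143 to 175 and 180 to 197, and on RN7SL2 alone 143 to 176 and 180 to 197. HSPA8 replicate 2 set the outer limits of this stretch: without it, the other lists shared 191 positions, from 36 to 176 and from 180 to 229. Leaving out HSPA1A replicate 2 gave 91 positions, from 143 to 197 and from 252 to 287, and leaving out either list numbered 1 gave the same 52 positions.

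In windows of 50 nt over the 3 genes, the share of positions under a peak was highest in the middle in each list. From 151 to 200 it was 100% and 76.0% with HSPA1A and 100% and 62.7% with HSPA8. In the first window, from 1 to 50, the HSPA1A lists reached 10.7% and 11.3% and the HSPA8 lists 66.0% and 0.0%. In the last, from 251 to 299, the HSPA1A lists reached 41.5% and 0.0% and the HSPA8 lists 66.7% and 32.7%. Both end windows were covered less than the window from 151 to 200 in each list. In HSPA8 replicate 1, however, RN7SL1 and RN7SL2 were covered over 100% and 99.3% of their length. The higher middle in that list came from the peak on RN7SL3, whose assignment to a copy is uncertain. The same held in both HSPA1A lists. In HSPA1A replicate 1, peaks covered RN7SL1 from 35 to 287 and RN7SL2 from 64 to 274, so both neighbouring windows were as full on these genes. In HSPA1A replicate 2, both genes were fully covered from 51 to 150 but had a gap before position 180. Only in HSPA8 replicate 2 did the higher middle come from RN7SL1 and RN7SL2.

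**Figure D2:**
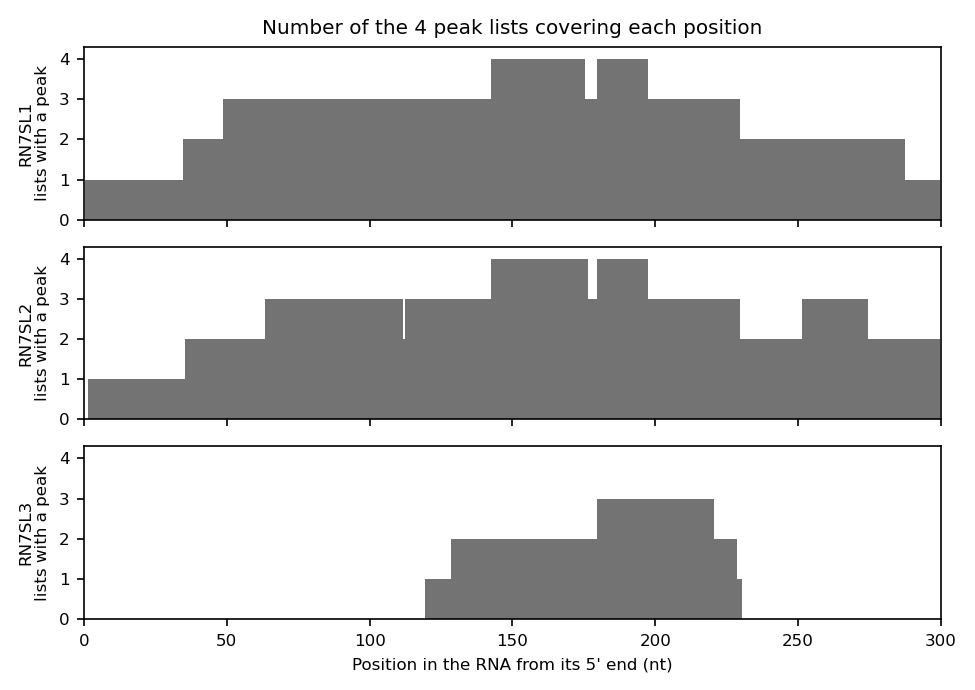
Number of the 4 lists (y axis) with a peak at each position of RN7SL1, RN7SL2 and RN7SL3 in nt from the 5′ end (x axis). The count reaches 4 from 143 to 175 and 180 to 197 on RN7SL1 and from 143 to 176 and 180 to 197 on RN7SL2, and at most 3 on RN7SL3.

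A break at position 180 recurred in the HSPA1A lists. Of the 10 HSPA1A peaks, 4 began at position 180: on RN7SL3 in replicate 1, and on each of the 3 genes in replicate 2. Another 2 HSPA1A peaks, on RN7SL1 and RN7SL2 in replicate 1, ran across it. Of the 8 HSPA8 peaks, 0 began there and 5 ran across it. A second shared boundary lay at 228 to 230, where 4 peaks ended: on RN7SL3 in HSPA1A replicate 1 and in HSPA8 replicate 1, and on RN7SL1 and RN7SL2 in HSPA1A replicate 2. The near-identical copies make these peaks dependent, so boundaries on different copies of one list are not separate observations.

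The same interval and score appeared on more than 1 copy. In HSPA1A replicate 2 the peak from 180 to 229 was present on RN7SL1 and on RN7SL2 with a score of 6 on each. In HSPA8 replicate 2 the peak from 143 to 197 was present on both with a score of 6 on each. How reads that match several places were treated is not given in the sources used here. Assignment of a peak to a copy is therefore uncertain, and the copies are not independent measurements of 7SL.

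The copies nevertheless kept the same order by best score in the lists. RN7SL1 scored 45 and 10 with HSPA1A and 83 and 6 with HSPA8, replicate 1 first. RN7SL2 scored 30 and 9, and 42 and 6, in that order, below RN7SL1 in 3 lists and tied with it in HSPA8 replicate 2. RN7SL3 scored 6, 5 and 24 in the 3 lists where it had a peak, the lowest of the copies in each. Within a list, the percentile of the best RN7SL1 score among all peaks was 74.5 and 75.5 in the lists numbered 1, and 41.9 and 8.8 in those numbered 2 (HSPA1A first). In both lists numbered 2, every 7SL peak scored below the list's median, which was 13 for HSPA1A and 22 for HSPA8.

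The positions covered were shared between baits as well as between replicates. Over the 3 genes the HSPA1A replicates covered 566 and 409 bases, and the HSPA8 replicates 705 and 158. Between the HSPA1A replicates 381 bases were shared, 67.3% of replicate 1 and 93.1% of replicate 2. Between the HSPA8 replicates 158 were shared, 22.4% of replicate 1 and 100% of replicate 2. Across baits, HSPA8 replicate 1 covered 99.5% of the bases of HSPA1A replicate 1 and 99.8% of those of HSPA1A replicate 2. HSPA8 replicate 2, with the shortest coverage, had 84.2% of its bases in common with HSPA1A replicate 1 and 65.2% with HSPA1A replicate 2. Of the bases outside the peaks of HSPA1A replicate 2, 48 lay at the 3′ end of RN7SL2, and the others lay in the gap before position 180 on RN7SL1 and RN7SL2.

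The baits were then compared by 3 measures, each tested by exact permutation of the bait labels (two-sided), for which 2 lists against 2 cannot give a p below 0.33. The share of a list's peaks that lay on 7SL was 5 of 2744 (0.182%, 95% Wilson interval 0.0779 to 0.426) and 5 of 2059 (0.243%, 0.104 to 0.567) for HSPA1A. For HSPA8 it was 5 of 3131 (0.160%, 0.0682 to 0.373) and 3 of 2040 (0.147%, 0.050 to 0.431). The intervals overlapped widely. They cover counting error over peaks alone and treat peaks as independent, which those on near-identical copies are not. The mean was 0.213% ± 0.0429 (SD, n = 2) with HSPA1A and 0.153% ± 0.00893 (SD, n = 2) with HSPA8. The baits differed by 0.0592 percentage points (exact permutation p = 0.33; 0.999 adjusted by Benjamini-Hochberg over the 3 measures). Both HSPA1A lists were above both HSPA8 lists. This direction turned when peaks within 50 bp were merged, with a difference of -0.0693, and with peaks at or above each list's median score, at -0.0469. On the chromosomes present in all 4 lists, the HSPA1A shares were unchanged and the HSPA8 shares rose to 0.18% and 0.211%. HSPA8 replicate 2 then lay above HSPA1A replicate 1, so the order of the lists did not hold there. The difference fell to 0.0171 there and to 0.0144 without RN7SL3. It was 0.0895 without HSPA1A replicate 1, 0.0288 without HSPA1A replicate 2, 0.0655 without HSPA8 replicate 1 and 0.0528 without HSPA8 replicate 2.

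Coverage did not separate the baits. The share of the summed length of the 3 genes under a peak was 63.1% and 45.6% with HSPA1A and 78.6% and 17.6% with HSPA8. The HSPA8 lists were thus the highest and the lowest of the 4. The means were 54.3% ± 12.4 (SD, n = 2) and 48.1% ± 43.1 (SD, n = 2), and their difference of 6.24 percentage points was under the SD of either bait's replicates (exact permutation p = 1). Without HSPA8 replicate 2 the difference was -24.2 percentage points, without HSPA8 replicate 1 it was 36.7, without HSPA1A replicate 1 it was -2.51 and without HSPA1A replicate 2 it was 15.0.

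The best score per gene gave the same picture. Its percentile within the list, averaged over the 3 genes with a gene without a peak set to 0, was 58.3 and 28.8 with HSPA1A and 70.4 and 5.88 with HSPA8. The means were 43.5 ± 20.9 (SD, n = 2) and 38.2 ± 45.6 (SD, n = 2), a difference of 5.37 (exact permutation p = 1). It was -26.9 without HSPA8 replicate 2, -9.39 without HSPA1A replicate 1, 20.1 without HSPA1A replicate 2 and 37.6 without HSPA8 replicate 1. For coverage and for score, both lists numbered 1 lay above both lists numbered 2. The labels name no day or batch that lists of a number share, and the part of the replicate number in this order was not tested.

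Other RNA polymerase III transcripts of similar length were set beside 7SL. RN7SL1 is 1 of 3 near-identical copies and the assignment of peaks to a copy is uncertain. Its values are therefore not those of 7SL as a whole. RN7SK, which holds the transcription elongation factor P-TEFb in an inactive state, was covered over 93.1% and 91.0% of its length with HSPA1A and 93.1% and 87.3% with HSPA8. RMRP, the RNA of RNase MRP, which processes ribosomal RNA precursors, was covered over 90.0% and 67.0%, and 98.5% and 70.7%. RPPH1, the RNA of RNase P, which trims the 5′ end of tRNA precursors, was covered over 92.4% and 61.9%, and 69.2% and 46.9%. RN7SL1 was covered less than each of them in 3 lists and more than each in HSPA8 replicate 1. The coverage of RN7SL1 ranged from 18.4% to 100% over the lists, whereas that of RN7SK ranged from 87.3% to 93.1%.

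**Figure D3:**
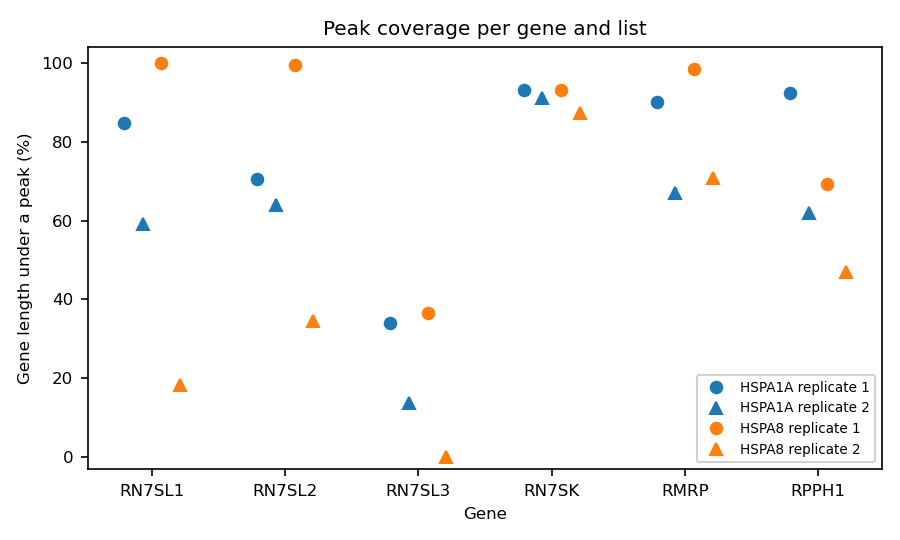
Percentage of each gene's length under a peak (y axis) for the 7SL genes and for RN7SK, RMRP and RPPH1 (x axis), with 1 point per list; circles are replicate 1 and triangles replicate 2, HSPA1A in blue and HSPA8 in orange. RN7SK stays between 87.3% and 93.1%, while RN7SL1 runs from 18.4% to 100%.

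By score, RN7SK stood above RN7SL1 in 4 of 4 lists, and RMRP and RPPH1 did so in 3 of 4. The best RN7SK score was at the percentile 88.6 and 85.2 with HSPA1A and 83.4 and 63.7 with HSPA8. RMRP was at 84.6 and 93.8, and 73.2 and 77.0, and RPPH1 at 77.2 and 80.7, and 64.0 and 30.0. The exceptions for RMRP and RPPH1 were both in HSPA8 replicate 1, where RN7SL1 was at 75.5. Between the HSPA1A replicates, RMRP and RPPH1 had the higher percentile in replicate 2, and RN7SL1 and RN7SK had the lower one there. These differences between genes were not tested.

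**Figure D4:**
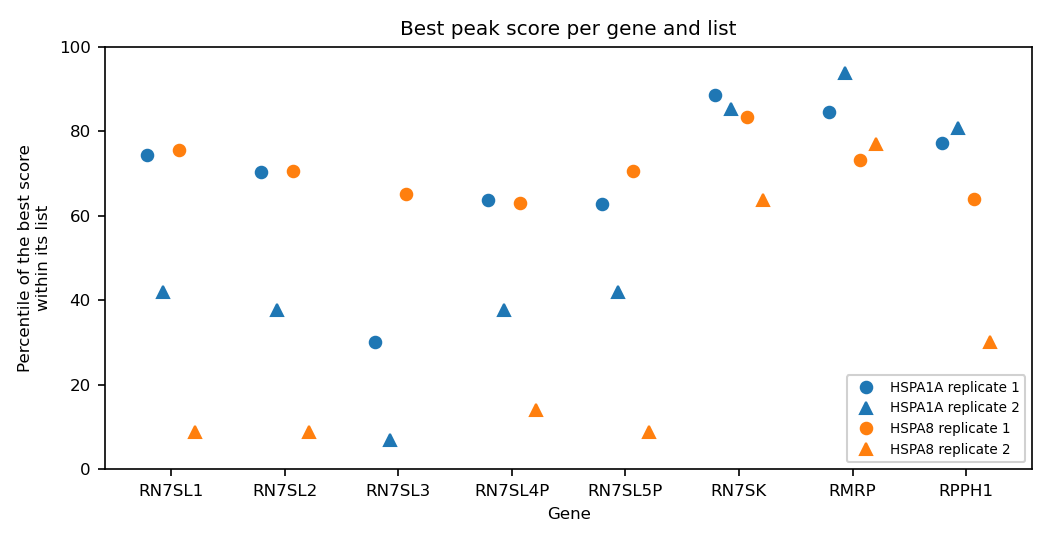
Percentile of the best peak score within its own list (y axis, 0 to 100) for the 7SL genes, the pseudogenes RN7SL4P and RN7SL5P, and RN7SK, RMRP and RPPH1 (x axis), with 1 point per list; circles are replicate 1 and triangles replicate 2, HSPA1A in blue and HSPA8 in orange. RN7SL1 lies at 74.5 and 75.5 in the lists numbered 1 and at 41.9 and 8.8 in those numbered 2, and RN7SL3 has no point for HSPA8 replicate 2.

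Most 7SL pseudogenes had no peak. Of 684 annotated RN7SL pseudogenes, 673 had a peak in 0 lists and 11 (1.61%) in any list, beside 6.66% of all genes of 100 to 500 bp, a set that includes many of the pseudogenes. HSPA1A replicates 1 and 2 marked 10 and 3 of them (1.46% and 0.439%, beside 5.97% and 4.23% of short genes), and HSPA8 replicates 1 and 2 marked 4 and 2 (0.585% and 0.292%, beside 4.7% and 3.65%). The difference was not tested. Of the 11, 2 were marked in all 4 lists, RN7SL4P at chr3:15738515-15738786 and RN7SL5P at chr9:9441998-9442310. Another 2, RN7SL674P on chromosome 2 and RN7SL396P on chromosome 8, were marked in 2 lists with scores of 5 and 6, RN7SL674P in both HSPA1A lists and RN7SL396P in both lists numbered 1. The remaining 7 were marked in 1 list, 6 of them in HSPA1A replicate 1.

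RN7SL5P had best scores of 17 and 10 with HSPA1A and 42 and 6 with HSPA8, above RN7SL3 in each list where RN7SL3 had a peak. RN7SL4P had 18 and 9, and 20 and 7, below RN7SL3 in HSPA8 replicate 1 and above it in both HSPA1A lists. The best RN7SL4P peak in HSPA8 replicate 2 outscored both genes that had a peak there, at 7 against 6 for RN7SL1 and for RN7SL2. All peaks on both pseudogenes were on the plus strand.

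Several RN7SL5P peaks mirrored peaks on the genes. In HSPA8 replicate 2 its peak of 55 bp with a score of 6 had the width and score of the peaks on RN7SL1 and RN7SL2. In HSPA1A replicate 2 its peak of 128 bp with a score of 10 differed by 1 bp in width from that on RN7SL1, and its peak of 41 bp with a score of 5 matched that on RN7SL3. In each of these 4 pairs the peak began 62 bp further into the annotated pseudogene than into the 7SL gene. A like repeat was seen among pseudogenes in HSPA1A replicate 1, where RN7SL191P, RN7SL359P, RN7SL587P and RN7SL664P, named after their values were seen, each had a peak of 37 bp from 13 to 49 bp inside an annotated end, with a score of 9. Assignment of these pseudogene peaks to a copy is therefore uncertain as well. Counting the pseudogenes with the genes, an alternative added after seeing the data, gave shares of 0.619% and 0.437% of peaks with HSPA1A and 0.319% and 0.245% with HSPA8 (difference 0.246 percentage points, exact permutation p = 0.33).

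Genes for proteins of the same pathway were looked up as well. A list of 19 held the protein subunits SRP9, SRP14, SRP19, SRP54, SRP68 and SRP72, the receptor subunits SRPRA and SRPRB, and genes of the translocon and its partners, such as SEC61A1, SEC61B, SEC62, TRAM1 and SSR1. All 19 were matched in the gene table, and 0 of 19 had a peak in any of the 4 lists, introns included. Among all 20050 protein-coding genes 7.7% had a peak in any list, and whether the pathway differs from this background was not tested. BCYRN1, a neuronal RNA polymerase III transcript whose 5′ part is related to the Alu domain of 7SL, also had a peak in 0 of 4 lists. Since read depth is unknown, the level that would have given a peak cannot be stated.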

How the data were processed

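The members and gene lists were chosen with earlier results of these data known. Per the labels' protocols, random adapter tags were used to merge PCR duplicates, and the authors deposited 1 peak list per replicate. Trim Galore 0.4.4, FastQC, STAR 2.6.0b, deepTools and the build GRCh38 come from the submitters' processing notes, which give no roles. The peak caller, its threshold and the handling of reads with several matches are not given in the sources used here. The authors deposited, for every peak, its interval, strand, an inner interval and a whole-number score of unstated meaning.

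Peaks were assigned to RefSeq genes (GRCh38.p14) by an overlap of at least 1 base, ignoring strand, with coordinates 1-based. Coverage was cut at the gene's ends. A percentile is the share of a list's peaks with a lower score plus 0.5 times that with the same score. Named besides the 7SL genes by rule were RN7SK, RMRP, RPPH1, BCYRN1, RN7SL pseudogenes marked in at least 2 lists and the signal recognition list. Baits were compared by exact permutation. Scripts ran in Python 3.11.15 with pandas 2.3.3, numpy 2.4.6 and scipy 1.17.1; figures were drawn with matplotlib 3.10.9. The coverage procedure was tested on simulated data.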

Additional observations from a re-analysis of the deposited data

How the results depend on the processing

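Of 31 values of the 3 bait comparisons under other settings, 23 kept their direction and 8 reversed. Some of those that kept it only repeated the main value, so the tally does not measure stability. The replicate block, which takes differences within each replicate number, cannot change a difference of means. Requiring the peak midpoint inside the gene left share and score percentile unchanged. Equal numbers of top-scoring peaks left coverage unchanged. The exact test cannot pass 0.05 with these lists, so an unchanged call says nothing about stability, and the unknown read depth limits every count. In HSPA1A minus HSPA8, the peak share reversed to -0.0693 with peaks within 50 bp merged. With peaks at or above the list's median score, the 3 measures became -0.0469 for share, -13.4 for coverage and -6.19 for score percentile; both lists numbered 2 then had 0 peaks on 7SL. Leaving out each replicate gave 0.0288 to 0.0895 for share, -24.2 to 36.7 for coverage and -26.9 to 37.6 for score percentile. Under the settings that left out no list, the values that kept their direction included coverage by the inner interval, 4.12, added after seeing the data. With merging, the share was 0.1481% and 0.2175% with HSPA1A and 0.1361% and 0.3681% with HSPA8. Only HSPA8 replicate 2 rose above its unmerged share. The cause of this reversal was not tested.

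The lists share replicate numbers only. Over 479 short genes with a peak, which are not independent, the departures of lists with the same number from the mean coverage of their bait correlated at 0.265. With the replicate block, the values were 0.0592 for share, 6.24 for coverage and 5.37 for score percentile (exact permutation of signs, p = 0.5, 1 and 1; 2 pairs cannot give less than 0.5). The setting with matching gene strand was not run, since no source used here gives the strand. Among equal scores, equal numbers of peaks were taken in file order.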
